A study of Mus musculus with 6 samples.

Results

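The alpha-actinins, the myozenins and the myotilin family include proteins of the Z-disc, the boundary between neighbouring sarcomeres, where actin filaments are held together. Some members, the myozenins not among them, act in stress fibres and focal adhesions of cells without sarcomeres. The 10 genes described here are Actn1, Actn2, Actn3, Actn4, Myoz1, Myoz2, Myoz3, Myot, Mypn and Palld, taken by gene name from a table of 55413 genes. Each name had 1 record. RNA was measured in C2C12, a line of mouse myoblasts that form myotubes in low serum. They were grown in 10% fetal bovine serum, moved to 2% horse serum and collected on day 4 of differentiation. There were 3 libraries labelled FHL3 KO, a knockout of the gene of a muscle LIM protein, and 3 WT libraries of the same line, medium and day. The labels name no clone for the knockout and do not say that libraries came from separate cultures. Clone and genotype therefore cannot be told apart, and a p-value here reflects the spread among these libraries alone, which may be technical.

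Alpha-actinins are dimers that cross-link actin filaments. ACTN2 and ACTN3 are the sarcomeric forms, with ACTN3 restricted to fast fibres in adult muscle, while ACTN1 and ACTN4 are the non-muscle forms of stress fibres and adhesions. Myozenins, also called calsarcins, bind alpha-actinin and the phosphatase calcineurin at the Z-disc. MYOZ2 is the form of slow fibres and heart, and MYOZ1 and MYOZ3 are forms of fast fibres. Myotilin (Myot), myopalladin (Mypn) and palladin (Palld) share immunoglobulin domains and bind alpha-actinin, the first pair in sarcomeres and palladin mainly in stress fibres.

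The 6 libraries were judged first as a whole. The values were read as FPKM, a unit inferred from the values: fragments or reads per kilobase of transcript and per size of the library, so that levels can be set side by side between genes. They summed to between 477577.2 and 494175.8 in the libraries labelled FHL3 KO and to between 424987.5 and 473369.2 in WT. Absolute depth is unknown. If the commonest value of genes under 150 bases is 1 fragment, relative depth ran from 0.862 to 1. Between libraries of a group the correlation of log2 values over genes was 0.977 to 0.991, and between groups 0.93 to 0.959 (genes are not independent replicates). WT replicate 1 held 63 genes above 1 FPKM and more than 10 times as high as in any other library, liver transcripts included, against 0 to 6 in the others. The RNA of the targeted gene was higher in the libraries labelled FHL3 KO. Fhl3 stood at 57.2, 53.5 and 58.9 FPKM in libraries labelled FHL3 KO and at 27.8, 30.03 and 33.7 FPKM in WT, a log2 change of 0.87 (SE 0.092; limma adjusted p = 0.000547). Coverage of single exons cannot be read from 1 value per gene, so these values do not test the knockout. Groups are named by their labels.

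The genes called below lie, in GRCm38, at chr13:12269426-12340760 (Actn2), chr3:123006206-123035015 (Myoz2), chr10:63115795-63203952 (Mypn) and chr8:61511433-61902690 (Palld), all on the minus strand. Starts of 4 of the 10 genes are shown because 3 of them (Actn2, Myoz2 and Mypn) were higher in the libraries labelled FHL3 KO and Actn1 did not pass the test. Each line is a RefSeq window of 300 bases, from 250 bases before to 50 after the start, 5′ to 3′ on the minus strand of GRCm38.p6. Capitals mark E-boxes (CANNTG) and, in Myoz2, a MEF2 box (CTA, any 4 bases, TAG). The E-box letters are those of bHLH factors in general, not of the myogenic ones alone. None of the marked runs overlaps another.
Actn2, chr13:12340683-12340982: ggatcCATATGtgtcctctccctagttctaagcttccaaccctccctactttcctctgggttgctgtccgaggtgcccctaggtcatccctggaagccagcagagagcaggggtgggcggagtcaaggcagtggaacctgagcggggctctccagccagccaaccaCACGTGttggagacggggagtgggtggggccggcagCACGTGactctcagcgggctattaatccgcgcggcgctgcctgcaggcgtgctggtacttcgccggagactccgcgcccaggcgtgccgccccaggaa
Myoz2, chr3:123034938-123035237: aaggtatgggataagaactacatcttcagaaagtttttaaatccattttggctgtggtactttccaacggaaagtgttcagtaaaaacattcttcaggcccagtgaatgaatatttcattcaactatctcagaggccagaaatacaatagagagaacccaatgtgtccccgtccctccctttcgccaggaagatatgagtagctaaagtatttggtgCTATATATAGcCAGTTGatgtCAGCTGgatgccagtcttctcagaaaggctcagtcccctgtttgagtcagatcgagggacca
Mypn, chr10:63203903-63204202: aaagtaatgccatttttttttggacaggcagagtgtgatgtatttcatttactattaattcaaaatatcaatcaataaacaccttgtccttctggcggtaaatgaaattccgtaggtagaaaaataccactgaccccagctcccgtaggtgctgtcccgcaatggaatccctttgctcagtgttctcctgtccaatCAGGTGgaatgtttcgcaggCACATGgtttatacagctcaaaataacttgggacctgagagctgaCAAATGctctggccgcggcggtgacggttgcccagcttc
Actn1, chr12:80260314-80260613: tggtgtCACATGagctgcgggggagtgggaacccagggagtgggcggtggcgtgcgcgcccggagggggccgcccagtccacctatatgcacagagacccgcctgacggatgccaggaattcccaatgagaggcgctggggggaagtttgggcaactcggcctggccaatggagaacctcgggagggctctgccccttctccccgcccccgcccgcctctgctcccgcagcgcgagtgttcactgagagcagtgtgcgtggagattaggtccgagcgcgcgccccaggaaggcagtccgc

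Actn2 held 3 E-boxes, a pair of them spelled CACGTG, at positions 167 and 203 counted from 1 at the 5′ end of the window. Myoz2 held the MEF2 box CTATATATAG at position 218, followed by the E-boxes CAGTTG at 229 and CAGCTG at 239. Mypn held 3 E-boxes, and Actn1 had 1, near the far end of its window. Of 32851 RefSeq windows of this length, 72.3% held an E-box, 3.69% the MEF2 box, 14.7% an MCAT element (CATTCC, the letters of TEAD factors) and 6.05% a YY1 core (AANATGGC), each searched on both strands. Mypn held 1 MCAT, which shares its outermost base with the E-box at 197, and 1 YY1 core. Actn4, which was not called and whose window is not printed, held 2 E-boxes, CAGGTG at 214 and CAAGTG at 266, and 1 MCAT. The mean over all windows was 1.39 E-boxes, so the counts do not set the called genes apart. Palld has 3 annotated starts, with 1, 0 and 3 E-boxes. The spelling CAGCTG stood in the windows of Myoz2 and, at 122 and 181, of Palld. These matches describe letters, not binding.

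Of the 10 genes, 8 reached a mean of 1 FPKM in at least 1 group and were tested. Mypn did so only through the libraries labelled FHL3 KO, which set the direction of its change but not its size. Of the 8, 4 rose in the libraries labelled FHL3 KO: Actn2, Myoz2, Mypn and Palld. None of the 8 fell at an adjusted p of 0.05, and Actn1, Actn3, Actn4 and Myoz1 were not called. Myot and Myoz3 stayed below 1 FPKM and were not tested. The groups did not overlap in 5 of the 8, against 53.8% of all genes tested, in either direction. Among all 12528 genes tested with limma, 40.8% were called, 19.7% higher and 21.2% lower. Scaled to the same sum of FPKM per library, 36.1% of calls were higher in place of 48.2%, and the median log2 change over all genes was -0.104 in place of -0.005. Under that scaling the same 4 genes were called, at log2 changes of 2.08, 1.47, 0.91 and 0.88.

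**Figure D1:**
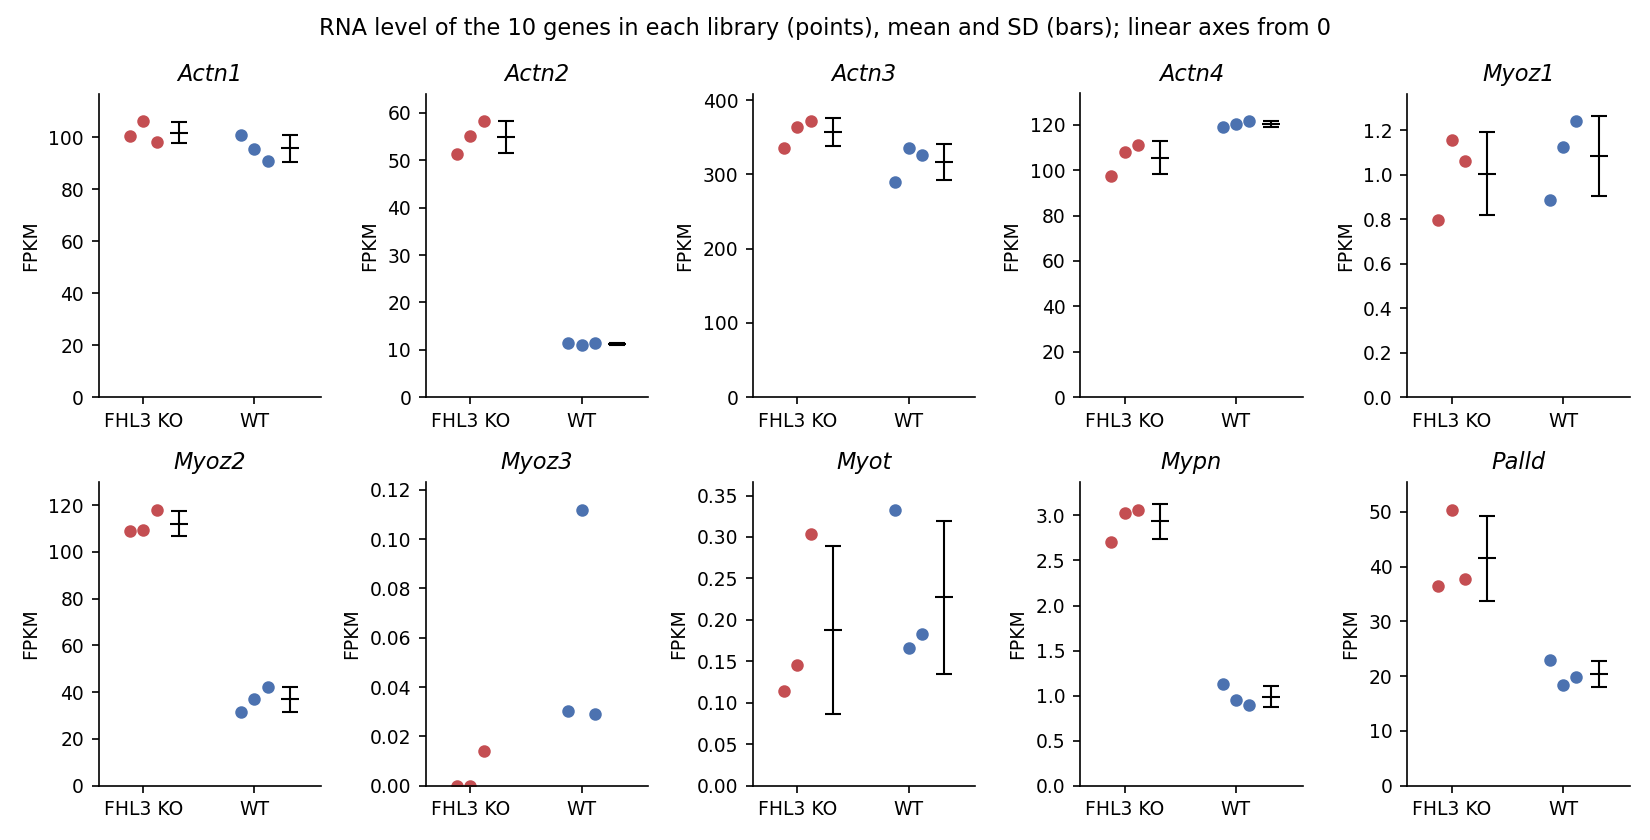
FPKM of each gene (linear axes from 0, 1 panel per gene) in the 3 libraries labelled FHL3 KO and the 3 WT libraries; points are libraries in replicate order, and the bar beside them is the mean and SD (not drawn for Myoz3, which was listed at 0 in some libraries). Actn2, Myoz2, Mypn and Palld lie higher in every library labelled FHL3 KO than in any WT library, while Actn1, Actn3, Myoz1 and Myot overlap.

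Actn2, the sarcomeric alpha-actinin of all striated fibres, had the largest log2 change of the 8 genes tested. It stood at 51.4, 55.1 and 58.3 FPKM in libraries labelled FHL3 KO and at 11.3, 11.1 and 11.3 FPKM in WT. All 3 labelled FHL3 KO lay far above a WT group with almost no spread. The means were 54.9 ± 3.5 FPKM in libraries labelled FHL3 KO and 11.3 ± 0.16 FPKM in WT (SD, n = 3 each), a ratio of 4.88. The log2 change of 2.19 (SE 0.078, 95% interval 2.01 to 2.37) had a limma adjusted p of 6.93e-06 and ranked 23 among the rises of all genes tested.

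Actn3, the fast-fibre form, was the most abundant of the 10 in both groups and was not called. Its FPKM were 335.6, 364.5 and 371.9 in the libraries labelled FHL3 KO, against 289.7, 336.2 and 325.6 in WT. The groups overlapped, with 1 WT library above the lowest of the other group. The log2 change was 0.17 (95% interval -0.05 to 0.39, limma adjusted p = 0.177). It turned to -0.10 after quantile normalization and to -0.03 after removal of length and GC trends, without a call. The ratio of Actn2 to Actn3 was 0.153, 0.151 and 0.157 in the libraries labelled FHL3 KO and 0.0392, 0.0329 and 0.0348 in WT. The ratio was thus higher in all 3, by 2.11 on the log2 scale, with p = 0.1 in a two-sided exact permutation, the smallest that 3 against 3 allows, also when adjusted over the 4 ratios computed.

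The non-muscle forms differed little. Actn1 stood at 100.7, 106.3 and 98.4 FPKM in libraries labelled FHL3 KO and at 101, 95.6 and 90.9 FPKM in WT, with overlap. Its log2 change was 0.09 (95% interval -0.09 to 0.27, limma adjusted p = 0.392), and it was -0.08 after quantile normalization and -0.02 with the same sum per library. Actn4 stood at 97.4, 108.1 and 111.2 FPKM in libraries labelled FHL3 KO and at 119, 120.4 and 121.6 FPKM in WT, so that every library labelled FHL3 KO was below every WT library. Of all genes tested, 26.9% lay apart in that direction. The log2 change of Actn4 was -0.19 (95% interval -0.37 to -0.01) with a limma adjusted p of 0.0908. It was called lower after quantile normalization (-0.35, adjusted p = 0.0163), with the same sum per library (-0.30, 0.0249) and after removal of length and GC trends (-0.26, 0.0142), and over all alternatives the adjusted p ran from 0.0142 to 0.419.

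Ratios between forms were also compared. Actn2 against Actn1 was 0.51, 0.518 and 0.593 in the libraries labelled FHL3 KO and 0.112, 0.116 and 0.125 in WT, a difference of 2.2 on the log2 scale. Actn4 against Actn1 was 0.967, 1.02 and 1.13 in the libraries labelled FHL3 KO and 1.18, 1.26 and 1.34 in WT, a difference of -0.28. Neither ratio overlapped between groups, and both had an exact permutation p of 0.1, before and after adjustment. In the summed FPKM of the 4 alpha-actinins, Actn2 took 8.86% ± 0.22 in the libraries labelled FHL3 KO and 2.07% ± 0.11 in WT (SD, n = 3 each). Actn4 took 17.0% ± 0.37 in libraries labelled FHL3 KO and 22.1% ± 0.74 in WT. Actn3 took 57.7% ± 0.41 in libraries labelled FHL3 KO and 58.2% ± 2.3 in WT, and Actn1 16.4% ± 0.96 in libraries labelled FHL3 KO and 17.6% ± 1.5 in WT. These shares are a description and were not tested.

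**Figure D2:**
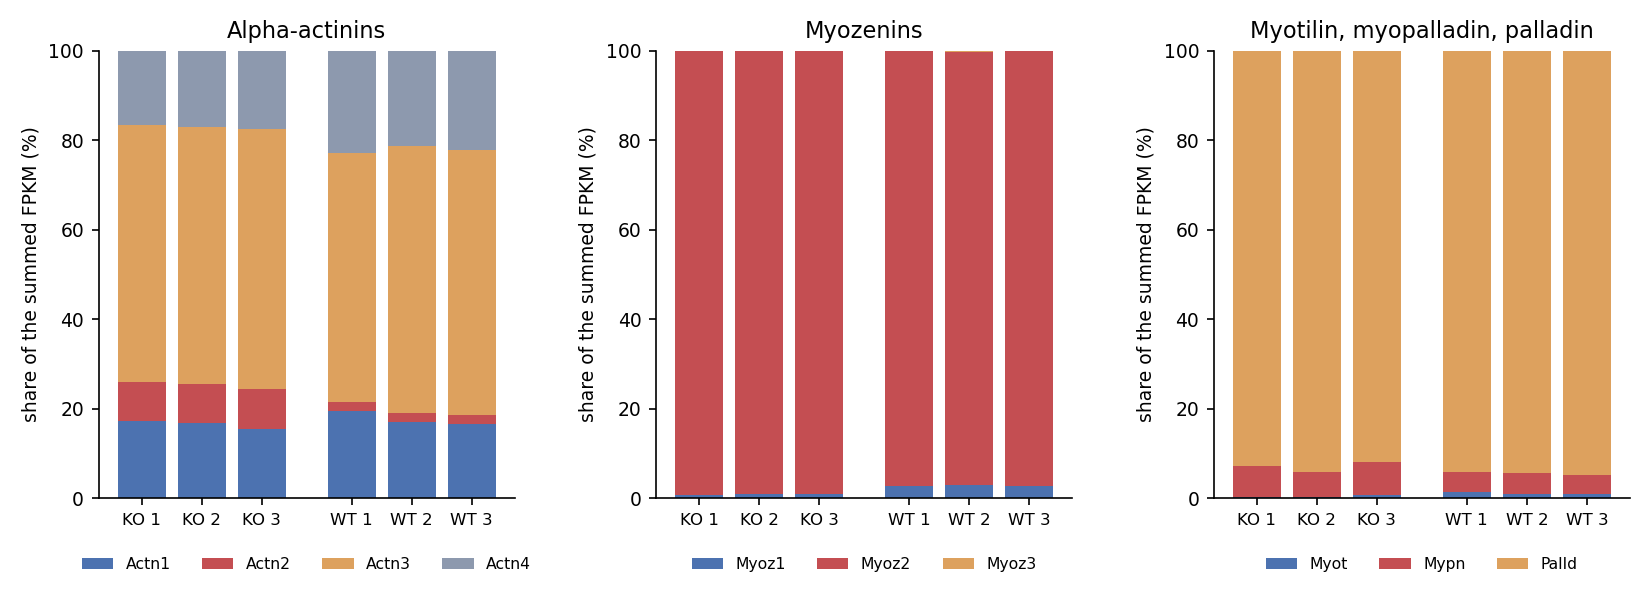
Share of each gene in the summed FPKM of its family (percent, stacked) in every library, with the 3 libraries labelled FHL3 KO (KO 1 to KO 3) left of the 3 WT libraries. The Actn2 segment is wider and the Actn4 segment narrower in the libraries labelled FHL3 KO, and Myoz2 and Palld fill most of the other families in all 6 libraries.

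How reads shared between genes were treated is not given, so shared sequence was counted. Of all words of 50 bases in their protein-coding transcripts, Actn1 and Actn4 shared 16 and Actn2 and Actn3 shared 2. No other pair of the 10 genes shared any. Actn1 has antisense genes on the opposite strand that overlap its exons by 88 and 363 bases, at 0.327 FPKM or less in every library, and Actn4 overlaps Capn12 by 316 bases, which was at 0.031 FPKM or less.

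Myoz2, the myozenin of slow fibres and heart, made up nearly the whole family and rose. It stood at 109.1, 109.2 and 118.1 FPKM in libraries labelled FHL3 KO and at 31.7, 37.1 and 42.4 FPKM in WT. The groups were far apart, and the first pair of libraries labelled FHL3 KO were nearly equal. The means were 112.1 ± 5.2 FPKM in libraries labelled FHL3 KO and 37.1 ± 5.3 FPKM in WT (SD, n = 3 each), a ratio of 3.02. The log2 change of 1.58 (SE 0.11, 95% interval 1.32 to 1.84) had a limma adjusted p of 0.000115. Myoz2 took 99.1% ± 0.16 of the summed myozenin FPKM in libraries labelled FHL3 KO and 97% ± 0.22 in WT.

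The fast-fibre myozenins were low in both groups. Myoz1 stood at 0.795, 1.16 and 1.06 FPKM in libraries labelled FHL3 KO and at 0.886, 1.13 and 1.24 FPKM in WT, with overlap. Its log2 change was -0.06 (95% interval -0.37 to 0.26, limma adjusted p = 0.758), and it was positive after quantile normalization (0.13) and without FHL3 KO replicate 1 (0.02), with no call. Myoz3 was listed at 0, 0 and 0.0141 FPKM in libraries labelled FHL3 KO and at 0.0304, 0.112 and 0.0291 FPKM in WT. These levels are too low for a comparison here, and an exact 0 can be a failed estimate. The ratio of Myoz2 to Myoz1 was 137, 94.4 and 112 in the libraries labelled FHL3 KO and 35.8, 33.0 and 34.2 in WT, higher by 1.72 on the log2 scale (exact permutation p = 0.1, before and after adjustment).

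Palladin and myopalladin rose, and myotilin was close to 0. Palld, the actin-bundling protein of stress fibres, stood at 36.4, 50.4 and 37.8 FPKM in libraries labelled FHL3 KO and at 23.0, 18.4 and 19.9 FPKM in WT. All 3 were above WT, and FHL3 KO replicate 2 was well above the other two. The means were 41.5 ± 7.7 FPKM in libraries labelled FHL3 KO and 20.4 ± 2.3 FPKM in WT (SD, n = 3 each), a ratio of 2.04. The log2 change of 0.98 (SE 0.14, 95% interval 0.65 to 1.31) had a limma adjusted p of 0.00195, and without FHL3 KO replicate 2 the change was 0.84 with an adjusted p of 0.00206. The 3 annotated starts of Palld cannot be told apart in a table with 1 value per gene.

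Mypn, which ties alpha-actinin to nebulin in the Z-disc, was a low transcript that rose. It stood at 2.71, 3.03 and 3.06 FPKM in libraries labelled FHL3 KO and at 1.13, 0.949 and 0.893 FPKM in WT. The groups were apart, with means of 2.93 ± 0.20 FPKM in libraries labelled FHL3 KO and 0.99 ± 0.12 FPKM in WT (SD, n = 3 each) and a ratio of 2.96. The log2 change of 0.98 (SE 0.11, 95% interval 0.72 to 1.25) had a limma adjusted p of 0.000792. Mypn passed the filter of 1 FPKM only through the libraries labelled FHL3 KO. The filter thus set the direction of its change, which is no separate support for a rise. At this level the pseudocount of 1 FPKM matters, and with 0.1 the log2 change was 1.48 (adjusted p = 0.000961). Myot, which bundles actin with alpha-actinin, was at 0.114, 0.146 and 0.303 FPKM in libraries labelled FHL3 KO and at 0.333, 0.166 and 0.182 FPKM in WT, with overlap.

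**Figure D3:**
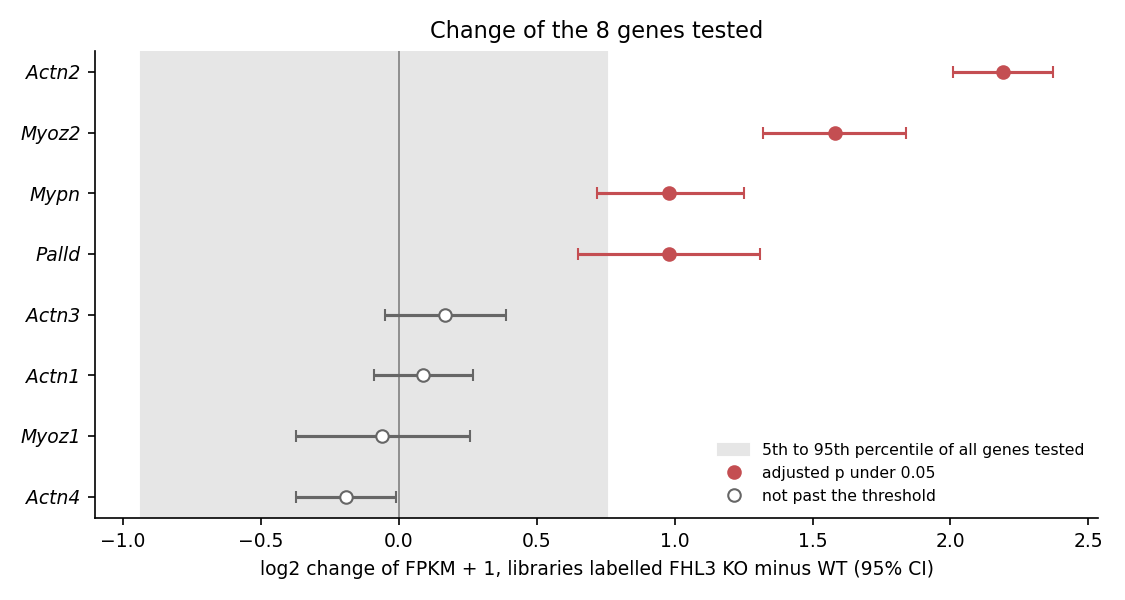
Log2 change of FPKM + 1 (libraries labelled FHL3 KO minus WT, x axis) with its 95% interval for the 8 genes tested; the grey band is the 5th to 95th percentile of all genes tested, -0.934 to 0.756. Actn2 and Myoz2 lie wholly to the right of the band, Mypn and Palld have intervals that start inside it, and the other 4 lie within it.

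The order of levels changed within the set. In the libraries labelled FHL3 KO it ran Actn3, Myoz2, Actn4, Actn1, Actn2, Palld, Mypn, Myoz1, Myot and Myoz3, with the ranges of Myoz2, Actn4 and Actn1 overlapping from each to the next. In WT it ran Actn3, Actn4, Actn1, Myoz2, Palld, Actn2, Myoz1, Mypn, Myot and Myoz3, where Myoz1 and Mypn alone of the neighbours overlapped. Myoz2 was above Actn1 and Actn4 in each library labelled FHL3 KO, with a range that overlapped that of Actn4 and not that of Actn1, and below both in WT. Actn2 stood above Palld in the libraries labelled FHL3 KO and below it in WT.

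The genes whose profile over the 6 libraries was most like that of Actn2 included several muscle genes. Likeness was the root mean square difference of log2(FPKM + 1) centred on each gene's mean, over 8087 genes whose mean reached 5 FPKM. The closest was Ucp2, an uncoupling protein of mitochondria (difference 0.066), at 27.3 FPKM in libraries labelled FHL3 KO and 5.18 FPKM in WT. The cardiac actin Actc1 (0.097), embryonic myosin Myh3 (0.13), Itgb1bp2, or melusin, a muscle protein that binds integrin (0.14), and Depp1 (0.14) followed. The log2 changes of these genes were 1.96 to 2.33. Over 6 libraries the measure mostly picks genes with a like difference between the groups, so it is not separate support for the rise of Actn2. Actn1 was most like Sqle, Ubl3, Kpna2, Ywhae and Laptm4b (0.024 to 0.027), and Myoz1 most like Slc25a44, Steap1, Araf, Slc25a1 and Arl16 (0.029 to 0.047), all genes with a nearly flat profile.

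Genes of the Z-disc and sarcomere outside the set rose more often than they fell. Of 38 listed, 37 were tested, 17 rose and 3 fell, with a median log2 change of 0.32 against -0.005 for all genes. The share over all genes tested was 19.7% higher and 21.2% lower. Ldb3, a PDZ-LIM protein that binds alpha-actinin, rose to 89.1 ± 2.3 FPKM in libraries labelled FHL3 KO, against 56.5 ± 4.3 FPKM in WT (limma adjusted p = 0.00105). The titin-binding Ankrd23 rose to 100.2 ± 3.5, against 46.3 ± 2.5 FPKM in WT, and the ubiquitin ligase Trim63 to 33.9 ± 1.6, against 13.5 ± 1.2 FPKM in WT (adjusted p of 0.000102 and 0.000115). Xirp2, an actin-binding partner of alpha-actinin, fell to 0.141 ± 0.029 FPKM, against 10.8 ± 1.5 FPKM in WT (adjusted p = 7.29e-06). Xirp2 passed the filter of 1 FPKM only through WT. The filter thus set the direction of its change, which is no separate support for a fall. Its log2 change was -3.36, and -5.5 with a pseudocount of 0.1 FPKM. The others that fell were the actin-binding Nexn and Fhl2, a relative of Fhl3, at log2 changes of -0.78 and -0.51 (adjusted p of 0.0253 and 0.00394), named after their values were seen. Tcap, which binds titin and the myozenins, was at 52.4 ± 3.7 FPKM in libraries labelled FHL3 KO and 41.9 ± 6.2 FPKM in WT and was not called (adjusted p = 0.0651). The filamin Flnc was at 99.2 ± 8.6 FPKM in libraries labelled FHL3 KO and 93.4 ± 3.3 FPKM in WT, also not called (adjusted p = 0.468).

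Of 33 focal adhesion and stress fibre genes, the partners of the non-muscle forms, all were tested, 7 rose and 7 fell, with a median log2 change of -0.04. Both counts are near the share over all genes tested, 19.7% higher and 21.2% lower, and are no result about these partners. The adhesion scaffold Pxn rose to 49.5 ± 1.5 FPKM in libraries labelled FHL3 KO, against 30.03 ± 0.57 FPKM in WT, and the calponin Cnn3 to 636.8 ± 22, against 367.4 ± 8.1 FPKM in WT (limma adjusted p of 0.000412 and 0.00051). The actin-binding Lasp1 fell to 65.2 ± 2.8, against 92.8 ± 2.0 FPKM in WT (adjusted p = 0.00179). Vcl and Zyx, both of which bind alpha-actinin, were not called. Vinculin (Vcl) was at 120.6 ± 16 FPKM in libraries labelled FHL3 KO and 126.2 ± 14 FPKM in WT (adjusted p = 0.678), and zyxin (Zyx) at 352.9 ± 22 FPKM in libraries labelled FHL3 KO and 334.9 ± 12 FPKM in WT (adjusted p = 0.516).

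Of 14 calcineurin and NFAT genes, the signalling partners of the myozenins, 11 were tested, 1 rose and 2 fell. Neither count exceeds the share over all genes tested, 19.7% higher and 21.2% lower, and they are no result about these partners. Rcan2, a calcineurin regulator, fell to 14.7 ± 1.3 FPKM in libraries labelled FHL3 KO, against 29.9 ± 2.3 FPKM in WT, while Rcan1, a regulator of the same family, rose to 35.3 ± 2.6, against 24.3 ± 0.41 FPKM in WT (limma adjusted p of 0.000439 and 0.00265). The catalytic subunit Ppp3ca fell to 9.30 ± 0.90, against 13.6 ± 1.3 FPKM in WT (adjusted p = 0.00844).

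Fibre-type genes were listed because Actn3, Myoz1 and Myoz3 are fast forms and Myoz2 a slow form. Their counts stand beside a share over all genes tested of 19.7% higher and 21.2% lower. Of 12 slow fibre genes 11 were tested, 7 rose and 0 fell, led by the slow myosin Myh7 at 76.9 ± 12 FPKM in libraries labelled FHL3 KO and 4.21 ± 0.33 FPKM in WT, with Tnni1 and Casq2 at log2 changes of 1.15 and 0.74. Of 15 fast fibre genes, all tested, 9 rose and 5 fell, with a median log2 change of 0.57, so that most of the fast list rose, as did most of the slow list. The 9 that rose, named after their values were seen, were Eno3 (1.03), Atp2a1 (0.99), Mylpf (0.89), Tnni2 (0.86), Tnnt3 (0.84), Pygm (0.77), Tnnc2 (0.67), Pfkm (0.57) and Myl1 (0.41), with log2 changes in parentheses. They include the fast calcium pump Atp2a1 and the fast troponins Tnni2, Tnnt3 and Tnnc2. The 3 fast genes with the smallest p all fell: Myh4, Pvalb and Myh1, at log2 changes of -3.91, -3.30 and -1.27. The others that fell, named after their values were seen, were Myh2 and Mybpc2 at -1.06 and -0.56. Pvalb was listed at 0 in 1 library labelled FHL3 KO. It passed the filter of 1 FPKM only through WT, which set the direction of its change. With a pseudocount of 0.1 FPKM the log2 change of Pvalb was -5.19. The limma adjusted p of Myh7, Tnni1, Casq2, Myh4, Pvalb and Myh1 was at most 0.000571.

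**Figure D4:**
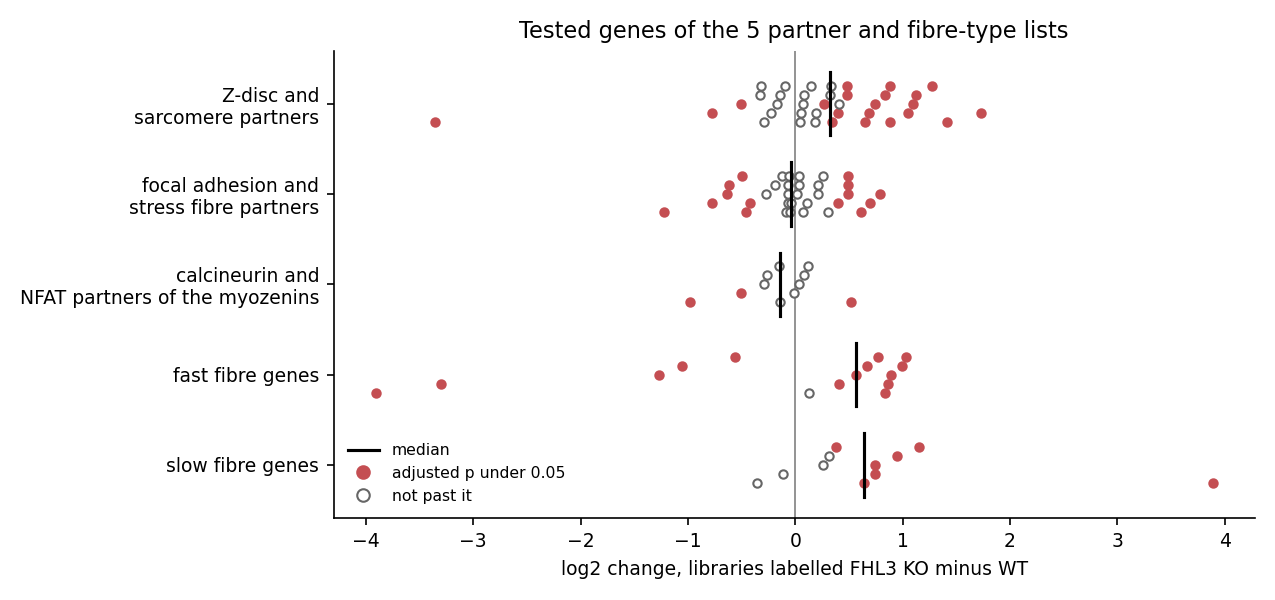
Log2 change (libraries labelled FHL3 KO minus WT, x axis) of each tested gene in the 5 lists of partners and fibre-type genes; filled points passed an adjusted p of 0.05, open points did not, and the vertical line is the median of the list. The Z-disc, fast fibre and slow fibre lists have most filled points to the right of 0, and the adhesion list has 7 on each side.

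Markers of the cell states in these cultures differed between the groups in some lists and not in others. Their part in the results above was not tested. The share over all genes tested, beside which these counts stand, was 19.7% higher and 21.2% lower. Of 10 genes of differentiated muscle, 8 rose and 0 fell, and their summed FPKM was 9753 to 10220 in the libraries labelled FHL3 KO and 4215 to 4754 in WT. Of 9 genes listed for undifferentiated myoblasts 7 were tested, 6 rose, among them the inhibitors Id1 to Id3, and Myf5 fell, with sums of 372.2 to 375.6 FPKM in libraries labelled FHL3 KO and 255.1 to 262.7 FPKM in WT. Of 10 proliferation genes 3 rose and 3 fell, and the sums overlapped (225.7 to 245.1 FPKM in libraries labelled FHL3 KO and 227.6 to 238.3 FPKM in WT). This list is no result about proliferating cells. Of 10 fibroblast genes 8 were tested, 2 rose and 3 fell (302.2 to 338.7 FPKM in libraries labelled FHL3 KO and 569 to 637 FPKM in WT), with Thy1 at 0 throughout. The 3 that fell were Dcn (12.1 FPKM in libraries labelled FHL3 KO, 151.9 in WT), Postn (10.1 and 108.2) and Col3a1 (122.8 and 201.6). Col1a1 and Pdgfrb rose, at log2 changes of 0.9 and 1.1, so the lower sum does not describe the whole list. In bulk RNA, fewer cells of a type and less RNA per cell cannot be told apart.

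Markers of other cell types were also counted, beside the same share over all genes tested, 19.7% higher and 21.2% lower. The smooth muscle and cardiac counts rest on 6 tested genes each and are no result about those cell types. Of 8 smooth muscle genes 6 were tested, 2 rose and 2 fell (sums 1282 to 1380 FPKM in libraries labelled FHL3 KO, 1089 to 1204 FPKM in WT), with the defining Myh11 and Myocd below 1 FPKM. Of 9 cardiac genes 6 were tested, 1 rose and 2 fell (3086 to 3777 FPKM in libraries labelled FHL3 KO and 1576 to 1940 FPKM in WT). Nppa, Myl7 and Tbx5 were below 1 FPKM, and the other 6 were expressed. The atrial and embryonic light chain Myl4 rose to 2470 ± 220 FPKM in libraries labelled FHL3 KO, against 897.4 ± 160 FPKM in WT, while Nkx2-5 fell to 3.38 ± 0.46, against 7.07 ± 0.90 FPKM in WT, and Nppb to 8.91 ± 2.1, against 12.8 ± 0.42 FPKM in WT (limma adjusted p of 0.00059, 0.00213 and 0.0365). Gata4, at 10.5 FPKM in libraries labelled FHL3 KO and 8.66 FPKM in WT, Tnnt2, at 1001 FPKM in libraries labelled FHL3 KO and 816.6 FPKM in WT, and Tnni3, at 3.07 FPKM in libraries labelled FHL3 KO and 3.37 FPKM in WT, were not called. The part of these cardiac markers in the results was not tested. None of 5 endothelial and 5 macrophage genes reached the level tested, with sums of at most 1.37 and 2.41 FPKM. The 5 liver genes summed to 0 in every library labelled FHL3 KO and to between 0 and 77.3 FPKM in WT. Without WT replicate 1 the log2 changes were 2.19 for Actn2, 1.47 for Myoz2, 1.03 for Mypn and 1.07 for Palld, each still called.

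**Figure D5:**
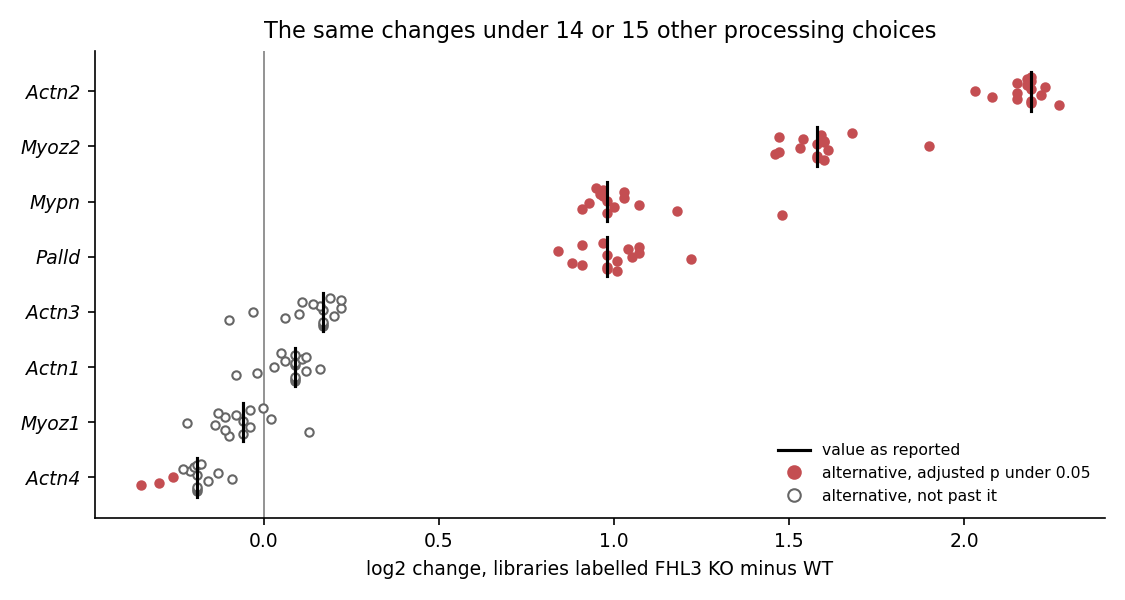
Log2 change (x axis) of the 8 genes tested under each of the other processing choices, 14 for Myoz1 and Mypn and 15 for the others; the black line is the value as reported, and filled points passed an adjusted p of 0.05. Actn2, Myoz2, Mypn and Palld passed in every alternative that tested them, Actn4 in 3, and Actn1, Actn3 and Myoz1 in none.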

How the data were processed

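RNA of 6 C2C12 libraries was analysed from 1 deposited table of decimal values per gene. Total RNA was used, per the labels. The build mm10 and the tools featureCounts 2.0.1, HISAT2 2.2.1, DESeq2 1.28.1 and Trim Galore 0.6.6 are named, with no role, per the submitters' processing notes. Not given in the sources used here are annotation, strand setting and the handling of shared reads. The deposited values were read as FPKM from the values themselves, since columns sum to different totals. No counts are held, so no count test was run and no counting interval is given.

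Of 55420 rows, 7 with repeated gene IDs were left out. The 12528 genes whose mean reached 1 FPKM in either group were fitted as log2(FPKM + 1), which understates changes of low genes, in R 4.3.3 with limma 3.58.1 (two-sided moderated test, mean-variance trend, no covariate, Benjamini-Hochberg over all genes tested, threshold 0.05). Coordinates, exon lengths and transcripts are from GENCODE M21 (GRCm38), which holds 94.1% of the IDs. GC content is that of the longest transcript, as no genome sequence was used. Ratios were compared by exact permutation. Scripts were tested on simulated data. The genes, lists and the rule for named genes (the 10 genes, Fhl3, 3 of each list by smallest p, 6 binders, the 5 most alike profiles) were chosen with earlier results of these data known. Liver, myoblast and other marker genes named outside that rule were picked after their values were seen.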

Additional observations from a re-analysis of the deposited data

How the results depend on the processing

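Alternatives were other pseudocounts, filters and scalings, removal of length or of length and GC trends (splines with 5 degrees of freedom), a replicate block, and leaving out each library. All 4 rises among the 10 genes were called under every alternative that tested them. The number lower among the 10 was 1 (Actn4) in place of 0 after quantile normalization, with the same sum per library and after removal of length and GC trends. Reversals without a call were, after quantile normalization, Actn1 (-0.08), Actn3 (-0.10), Myoz1 (0.13), Flnc (-0.08) and Zyx (-0.23). With the same sum they were Actn1 (-0.02), Flnc (-0.02) and Zyx (-0.03). After removal of length and GC trends they were Actn3 (-0.03), Vcl (0.01) and Zyx (-0.04), and after removal of length trends Vcl (0.12). Leaving out 1 library, Myoz1 ran from -0.13 to 0.02 and was positive without FHL3 KO replicate 1, and Vcl ran from -0.17 to 0.0065 and was positive without FHL3 KO replicate 1 (0.0032) and without WT replicate 1 (0.0065). Tcap was called after removal of length trends (0.28, limma adjusted p = 0.0374) and without WT replicate 3 (0.41, 0.0459), and Flnc after removal of length trends (0.30, 0.0177).

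Calls over all genes numbered 5112 as reported and 3272 to 5273 without 1 library (1605 to 2422 higher, 1667 to 2851 lower), the lowest without WT replicate 2. Without FHL3 KO replicate 1, 1749 were lower. Z-disc genes that fell numbered 7 after quantile normalization, 6 with the same sum, 7 after removal of length trends, 5 after removal of length and GC trends, 5 with a filter at 5 FPKM and 2 to 5 without 1 library, in place of 3. Removal of length and GC trends gave 11 adhesion genes higher in place of 7 and 3 calcineurin genes higher in place of 1, or 2 after removal of length trends alone. Slow fibre genes higher numbered 4 in place of 7 without a filter. Slow fibre genes lower numbered 1 in place of 0 after quantile normalization, with the same sum, after removal of length and GC trends and with the replicate block, and 0 to 1 without 1 library. The cause was not tested for any of these.

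The replicate block gave 4759 calls. Deviations of same-numbered libraries correlated at -0.127, -0.063 and 0.316, and not every library correlated best with its own number, so the numbers were not taken as pairs. The block changed no call among the 10 genes. Depth is unknown, which limits what can be said of Myoz3, Myot, Myoz1 and Mypn.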

Other observations

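Palld, on chromosome 8, holds on its opposite strand the antisense gene 4930512H18Rik, which shares 0 exon bases with it and was picked after its values were seen. It stood at 0.231, 0.262 and 0.246 FPKM in libraries labelled FHL3 KO and was listed at 0 in all 3 WT libraries. It was below the level tested.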
